A study of Mus musculus with 2 samples.

Results

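Wnt signalling genes were examined in Prrc2a RIP-seq peak lists from mouse brain. The set held 40 genes of the 21938 protein-coding genes on the assembled chromosomes: 19 Wnt ligands, 10 Frizzled receptors, 7 intracellular components (Dvl1, Dvl2, Dvl3, Axin1, Axin2, Apc and Ctnnb1) and 4 secreted inhibitors (Sfrp1, Sfrp2, Dkk1 and Dkk3). The genes were listed by name, and the peaks that describe them were selected on the measured peak positions: a peak of either replicate counted for a gene when it met an exon of the gene in GENCODE M21 (mm10) by 1 bp or more. Peaks of replicate 1 were called shared if a peak of replicate 2 covered 1 bp of them or more. The set was put together with these peaks already known, so all counts of peaks per gene are a description and no test was applied to them.

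RIP-seq sequences the RNA that comes down with a protein when an antibody pulls it out of a lysate, here Prrc2a, a proline-rich coiled-coil protein that binds mRNA carrying N6-methyladenosine. The tissue was whole brain of wild type male C57BL/6J mice of 4 weeks, in 2 replicates of a single condition without a treatment, and the protocol names 3 brains without saying how they were divided between the replicates. Each deposited peak has a position and a fold enrichment, which is the ratio, on a linear scale, between pulled down RNA and a control that the methods leave unnamed. The lists hold no read totals, so the depth is unknown and the spread between the replicates is the available error, which may be technical. A peak measures enrichment over the control and not expression, the lists carry no strand, missing peaks cannot be told apart from too few reads, and cell types of the brain are not resolved.

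Wnt proteins are secreted, lipid-modified signals that bind Frizzled receptors on neighbouring cells. Without a ligand, the scaffolds Axin and Apc hold beta-catenin (Ctnnb1) in a complex that marks it for destruction. Ligand binding recruits Dishevelled and the scaffolds to the membrane, and beta-catenin then enters the nucleus and activates transcription together with TCF/LEF factors. In the brain the pathway is known for patterning of the neural tube, growth of axons and synapses, formation of brain vessels and the timing of oligodendrocyte differentiation.

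Shared exonic peaks were found in 16 of the 40 Wnt genes, 40%, beside 12.0% of all protein-coding genes. Replicate 1 had an exonic peak in 18 of the 40 (45%, beside 16.5% of all protein-coding genes), and replicate 2 in 22 (55%, beside 21.1%). The genes with shared peaks were the ligands Wnt1, Wnt4, Wnt5a, Wnt5b, Wnt7b, Wnt9a and Wnt10a, the receptors Fzd1, Fzd3, Fzd5, Fzd7, Fzd8 and Fzd10, and the intracellular genes Axin1, Axin2 and Apc. By role these were 7 of 19 ligands, 6 of 10 receptors, 3 of 7 intracellular components and 0 of 4 secreted inhibitors. A further 2 genes had exonic peaks in replicate 1 only, 6 had them in replicate 2 only, and 16 had none in either replicate. Shares over all protein-coding genes were not computed for these counts. Replicate 2 had exonic peaks in more protein-coding genes than replicate 1, 4619 against 3617 of 21938. The exons of the Wnt genes spanned a median of 4165.5 bases and those of all protein-coding genes 3499, while genes with a shared peak had a median of 6865, so length moved with the presence of a peak and its part in these shares was not tested. Within the set, the median was 4364.5 exonic bases in the 16 genes with a shared peak and 3571 in the other 24. Within roles this did not always hold. The medians with and without a shared peak were 3329 and 3286.5 in ligands, 5253 and 4240.5 in receptors, and 5506 and 5745 in intracellular genes.

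**Figure D1:**
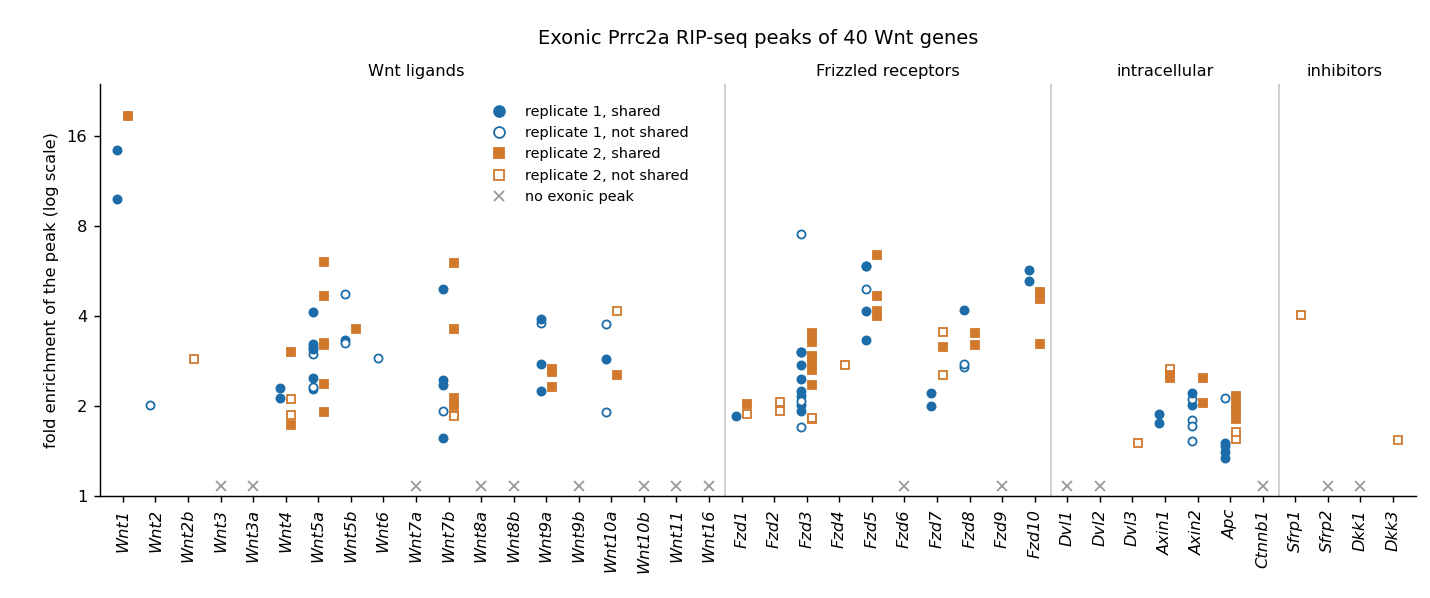
Fold enrichment (log axis) of every exonic peak of the 40 Wnt genes, grouped by role on the horizontal axis, with circles for replicate 1, squares for replicate 2, filled symbols for shared peaks, open symbols for peaks of a single replicate and crosses for the 16 genes without an exonic peak. Wnt1 stands above the other genes in both replicates, and the intracellular genes lie below 3.

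Coding sequence from shared peaks is shown for the 5 genes with the most enriched shared peaks. These stretches give the reference sequence under the peaks, not reads of the pulled down RNA. They show where GGAC, the core of the sequence in which N6-methyladenosine is commonly found, lay within it. Each run of 120 bases is on the strand of the gene, was read from the RefSeq sequence of GRCm38.p6 (the mm10 build), lies in coding sequence that peaks of both replicates covered, and is placed around the GGAC nearest the middle of that stretch where it held any, as near to the centre as the ends of the stretch allowed. Capitals mark GGAC. They lie at chr15:98792492-98792611 (Wnt1, plus strand, coding exon 4), chr1:64735078-64735197 (Fzd5, minus strand, coding exon 1), chr15:85537510-85537629 (Wnt7b, minus strand, coding exon 4), chr5:128602069-128602188 (Fzd10, plus strand, coding exon 1) and chr14:28522657-28522776 (Wnt5a, plus strand, coding exon 5).
Wnt1: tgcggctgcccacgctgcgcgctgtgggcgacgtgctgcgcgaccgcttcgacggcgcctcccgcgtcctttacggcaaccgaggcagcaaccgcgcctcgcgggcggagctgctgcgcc
Fzd5: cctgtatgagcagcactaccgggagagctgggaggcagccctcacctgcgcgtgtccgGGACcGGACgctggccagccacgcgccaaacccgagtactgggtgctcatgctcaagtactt
Wnt7b: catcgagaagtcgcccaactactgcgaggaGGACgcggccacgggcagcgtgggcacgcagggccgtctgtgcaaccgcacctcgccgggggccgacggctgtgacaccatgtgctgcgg
Fzd10: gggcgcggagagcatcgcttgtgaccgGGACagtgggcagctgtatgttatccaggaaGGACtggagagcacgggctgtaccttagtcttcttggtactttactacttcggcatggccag
Wnt5a: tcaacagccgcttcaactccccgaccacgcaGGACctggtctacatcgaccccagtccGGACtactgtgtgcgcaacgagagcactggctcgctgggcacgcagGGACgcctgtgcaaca
The Wnt1 stretch had a GC content of 75.8% and no GGAC, the Fzd5 stretch 65.0% and 2, the Wnt7b stretch 70.8% and 1, the Fzd10 stretch 56.7% and 2, and the Wnt5a stretch 63.3% and 3. The stretch of 273 coding bases of Wnt1 exon 4 that both replicates covered held no GGAC, whereas the whole replicate 1 peak it came from held 2 in its 828 coding bases. The stretches did not all come from the highest peak of their gene. Those of Wnt1 (14.5 in replicate 1 and 18.7 in replicate 2) and Fzd5 (5.91 and 6.42) did. The Fzd10 stretch came from a peak with 5.27 and 4.57, the second of that gene, and the Wnt5a stretch from a coding peak with 3.15 and 3.21. The Wnt7b stretch came from its lowest shared peak, with 1.56 and 1.86, since the higher peaks of these genes lay mostly in UTRs.

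Among the ligands, Wnt1, a signal that organises the midbrain and hindbrain of the embryo, had the highest enrichment of the set. Replicate 1 had 2 peaks at the gene, chr15:98789195-98790577 with an enrichment of 9.87 and chr15:98790686-98792723 with 14.5, and both overlapped 1 replicate 2 peak, chr15:98789276-98792688, with 18.7. The second replicate 1 peak and the replicate 2 peak averaged 16.6 ± 3.02 (mean ± SD, n = 2, as in all such values that follow), above the most enriched shared peak of 99.8% of the 2629 protein-coding genes with one. These peaks were not limited to exons. The first began 662 bases upstream of the annotated gene start, the second held 1210 intronic bases in a width of 2038, and 36% of the replicate 2 peak was exonic. Wnt1 was the gene of the set that lost its shared peak when at least 50% of the replicate 1 peak had to be exonic. Spliced mRNA and its precursor cannot be told apart in lists without read alignments. On the spliced mRNA, peaks of both replicates covered 51.7% of the bases, the start codon included and the stop codon not.

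Wnt7b, which guides the growth of brain vessels and dendrites, followed with peaks at its 5′ end. The most enriched shared peak lay in the 5′ UTR at chr15:85581274-85581720, 447 bp wide, with 4.94 in replicate 1 and 6.02 in replicate 2 (5.48 ± 0.763). It also overlapped an exon of AU022754, and without strand the 2 genes cannot be told apart there. A second 5′ UTR peak, chr15:85577599-85577996, had 2.46 and 3.62 (3.04 ± 0.824). It lay in exons of other Wnt7b transcripts and not on the principal mRNA. At the other end of the mRNA, a replicate 1 peak of 1753 bp in the 3′ UTR, chr15:85535541-85537293, had 2.36 and overlapped 3 replicate 2 peaks with enrichments between 1.86 and 2.12. A coding peak next to it, chr15:85537491-85537810, had 1.56 in replicate 1 and overlapped the same 1069 bp replicate 2 peak (1.86). Values of the 5′ UTR peaks of Wnt7b were thus above those at its 3′ end in both replicates, by little for the second one in replicate 1. Of its principal mRNA, 53.7% lay inside peaks of both, the highest coverage in the set.

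Wnt5a, a ligand that mostly acts without beta-catenin and steers axons and cell movements, had 6 shared peaks spread from the 5′ UTR to the 3′ UTR. The highest was in the 5′ UTR at chr14:28505157-28505995 (839 bp), with 4.15 in replicate 1 and 6.10 in replicate 2 (5.13 ± 1.38). A 3′ UTR peak at chr14:28523926-28524232 followed with 3.11 and 4.68 (3.90 ± 1.12). A second 5′ UTR peak, chr14:28504756-28505020, had nearly equal values of 3.24 and 3.26. In the coding sequence, chr14:28522583-28522853 had 3.15 and 3.21, chr14:28518183-28518485 had 2.28 and 2.38, and chr14:28513095-28513503 had 2.50 and 1.92. In 3 of the 6 peaks the SD between the replicates was thus 0.0706 or less, and the 2 peaks that differed most were both higher in replicate 2. Replicate 1 had 2 more peaks in the 3′ UTR without a counterpart, with 2.98 and 2.32.

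The other 4 ligands with shared peaks lay lower. In Wnt5b, a close relative of Wnt5a, the shared peak was in the 3′ UTR at chr6:119432664-119432894 (231 bp), with 3.34 in replicate 1 and 3.64 in replicate 2 (3.49 ± 0.212), and 2 further coding peaks of replicate 1, with 4.74 and 3.25, had no counterpart. All 4 exonic Wnt5b values recurred in at least 10 peaks of the same replicate, the 4.74 in 202 of them. Wnt9a, a ligand of bone and cartilage development, had its highest shared peak over the stop codon at chr11:59330821-59331798 (978 bp), with its midpoint in the coding sequence and values of 3.92 and 2.66 (3.29 ± 0.890). It was the ligand whose best peak was most clearly higher in replicate 1, by 0.56 on the log2 scale. Wnt10a, a ligand of tooth and hair development, had a 3′ UTR peak at chr1:74803720-74804164 (445 bp) with 2.87 and 2.54 (2.71 ± 0.237). Wnt4, known for kidney and gonad development, had its highest peak in the 3′ UTR at chr4:137298752-137299429 (678 bp) with 2.31 and 3.04 (2.68 ± 0.521). Between the best peaks of Wnt4, Wnt10a, Wnt9a and Wnt5b, neighbouring means differed by less than the larger of their SDs.

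Another 3 ligands had an exonic peak in 1 replicate. Wnt2, a ligand of lung and placenta, had a coding peak in replicate 1 (chr6:18022952-18023212) with 2.03, and Wnt6, a ligand of epithelia, had one (chr1:74784245-74784571) with 2.89. Wnt2b, known from eye development, had a coding peak in replicate 2 (chr3:104954552-104954854) with 2.89. The values of Wnt6 and Wnt2b recurred in 17 and 16 peaks of their replicate. Wnt3, Wnt3a, Wnt7a, Wnt8a, Wnt8b, Wnt9b, Wnt10b, Wnt11 and Wnt16 had no exonic peak in either replicate. Wnt7a encodes a protein very close to that of Wnt7b, and the pair differed in the presence of peaks in both replicates.

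Several ligand genes lie side by side in the genome. Of 4 such pairs, Wnt9b and Wnt3 on chromosome 11 both lacked a shared peak. In each of the other 3 pairs 1 gene carried shared peaks and its neighbour none. Wnt1 had them and Wnt10b, 11706 bp away on the opposite strand, did not; Wnt9a had them and Wnt3a, at 16175 bp, did not; and Wnt10a had 1 while Wnt6, at 6193 bp on the same strand, had only its replicate 1 peak.

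**Figure D2:**
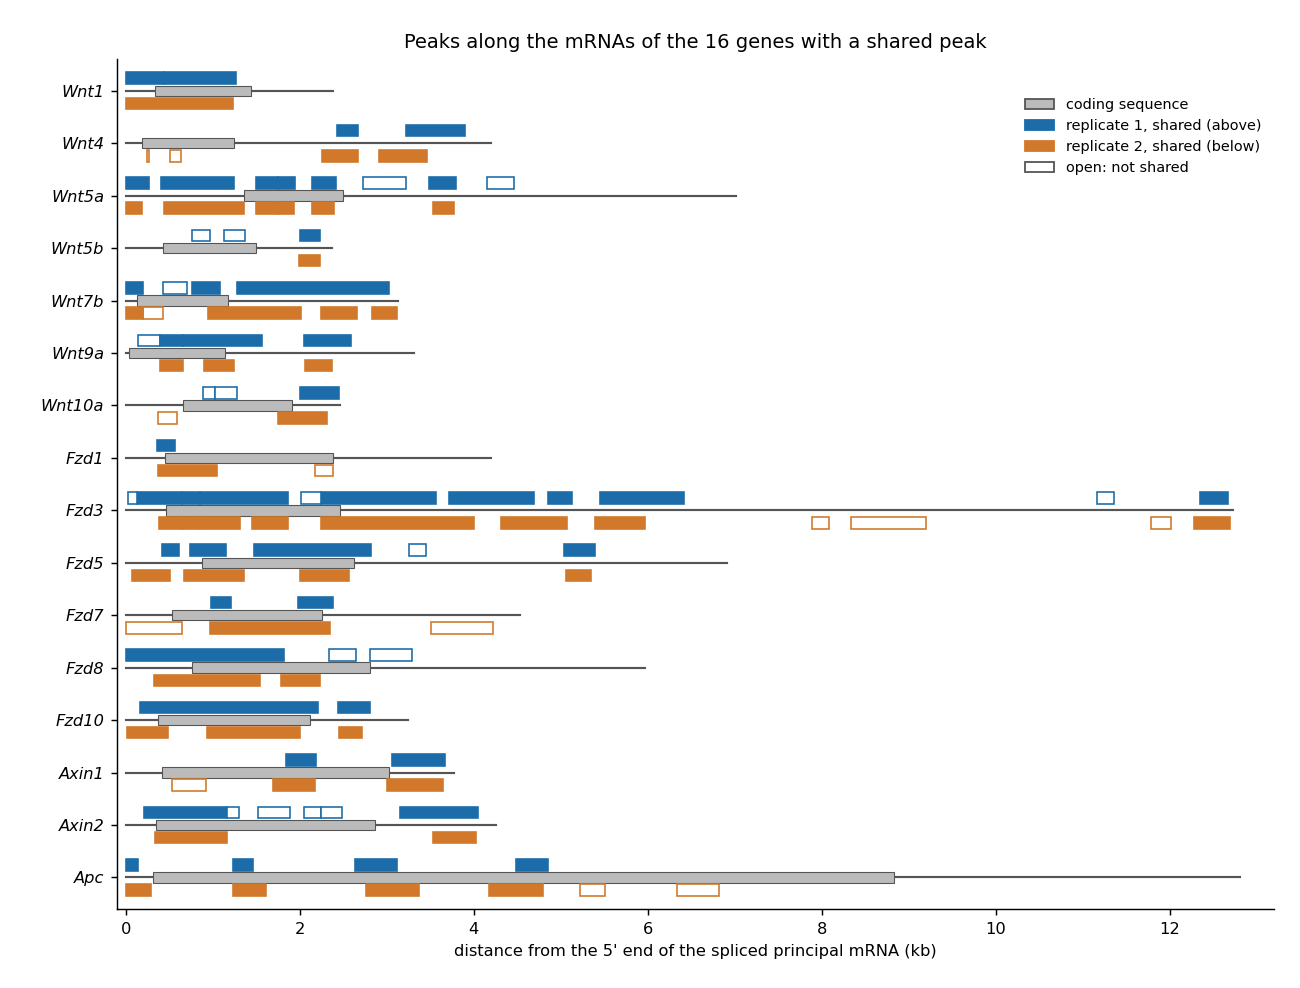
Peaks along the spliced principal mRNA of the 16 Wnt genes with a shared peak, in kb from the 5′ end, with replicate 1 above and replicate 2 below each line, grey boxes for coding sequence, filled bars for shared peaks and open bars for peaks of a single replicate. A bar runs from the first to the last mRNA base inside the peak, so introns are not drawn; bars of both replicates start at the 5′ end of Wnt1, and the Fzd3 bars reach through the coding sequence into the long 3′ UTR.

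Frizzled receptors span the membrane 7 times, and most of their genes have the whole coding sequence in 1 exon. Of the 7 genes of the set with 1 coding exon, Fzd1, Fzd2, Fzd5, Fzd7, Fzd8, Fzd9 and Fzd10, 5 had a shared peak, beside 10.3% of all protein-coding genes of that kind. Of the 33 genes with several coding exons 11 did, beside 12.3%. Because such genes have no intron inside the coding sequence, a peak there cannot show whether the RNA was spliced.

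Fzd5, a receptor needed for eye and vessel development, had the highest shared peak of a receptor. This peak lay in the coding sequence at chr1:64734654-64735994 (1341 bp) and reached past the stop codon in replicate 1 only, with 5.91 in replicate 1 and 6.42 in replicate 2 (6.17 ± 0.361). A peak over the start codon, chr1:64736320-64736733, had 5.91 and 4.18 (5.04 ± 1.22), and a 3′ UTR peak, chr1:64732073-64732435, had 4.17 and 4.68 (4.43 ± 0.359). The fourth, in the 5′ UTR at chr1:64737138-64737339, had 3.34 and 4.01 (3.68 ± 0.476). The 2 peaks at the 5′ end also overlapped exons of Gm38058, an annotated gene at the same place. All 4 replicate 2 values of Fzd5 recurred in that replicate, the 6.42 in 10 peaks and the 4.68 in 96, and without such recurring values Fzd5 had no shared peak.

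Fzd10, a receptor of the dorsal neural tube, had 2 replicate 1 peaks that 3 replicate 2 peaks overlapped. The first covered the whole coding sequence at chr5:128601011-128603058 (2048 bp) with 5.27, and its longest partner in replicate 2, chr5:128601779-128602851, had 4.57 (4.92 ± 0.491). A further replicate 2 peak over the start of the same region, chr5:128600864-128601334, had 3.23. The second replicate 1 peak, in the 3′ UTR at chr5:128603280-128603655, had 5.71 and its partner 4.82 (5.26 ± 0.633). Both shared peaks of Fzd10 were higher in replicate 1, unlike most of the set. The start codon and 51.2% of the mRNA lay inside peaks of both replicates.

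The best peaks of the other 4 receptors were lower. Fzd8, a receptor expressed in the developing forebrain, had its highest shared peak at chr18:9211439-9213979 (2541 bp), with its midpoint in the 5′ UTR and values of 4.21 and 3.51 (3.86 ± 0.490); 724 of its bases lay upstream of the annotated gene. Fzd3, a receptor that guides axon tracts through planar cell polarity, had the longest list, 8 shared peaks. The highest was in its 3′ UTR at chr14:65198768-65199731 (964 bp) with 3.04 and 3.49 (3.26 ± 0.321), and the means of all 8 lay between 2.33 and 3.26. The highest single value of a receptor was also in Fzd3, a replicate 1 peak that held 108 bases of 5′ UTR exon (chr14:65262183-65262439) with 7.54, but the nearest replicate 2 peak lay 8975 bp away. Fzd7, a receptor of stem and progenitor cells, had a coding peak at chr1:59483401-59483637 (237 bp) with 2.22, inside a replicate 2 peak of 1381 bp with 3.16 (2.69 ± 0.667). Fzd1, a widely expressed receptor, had a peak over the start codon at chr5:4757467-4757677 (211 bp) with 1.86 and 2.04 (1.95 ± 0.126). Fzd1, Fzd7 and Fzd8 lost their shared peak when the overlap had to reach 50% of both peaks.

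Fzd2 and Fzd4 had exonic peaks in replicate 2 only. Fzd2 had 2, over its start codon (chr11:102604453-102604826, 1.94) and in the coding sequence (chr11:102604993-102605342, 2.07). Fzd4, the receptor for norrin in vessels of the retina and cerebellum, had 1 over its start codon (chr7:89404500-89404909) with 2.75, a value that recurred in 12 peaks. Fzd6 and Fzd9 had none in either replicate.

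Inside the cell, the shared peaks lay in the scaffolds of the destruction complex and had low values. Axin2, itself a target gene of the pathway and a marker of its activity, had its highest shared peak over the start codon at chr11:108923042-108924150 (1109 bp) with 2.02 in replicate 1 and 2.48 in replicate 2 (2.25 ± 0.328). Its second, in the 3′ UTR, had 2.21 and 2.05, and 4 further coding peaks of replicate 1, between 1.54 and 2.12, had no counterpart. Axin1, the constitutive scaffold, had a 3′ UTR peak at chr17:26195099-26195701 (603 bp) with 1.88 and 2.54 (2.21 ± 0.468) and a coding peak with 1.75 and 2.48. The difference between the best means of Axin1 and Axin2 was smaller than the SD of either. Apc, the large scaffold that tethers beta-catenin and binds microtubules, had 4 shared peaks, 3 with their midpoint in its coding sequence of 8526 bases and 1 in the 5′ UTR. Its highest was at chr18:34298401-34298646 (246 bp) with 1.40 and 2.16 (1.78 ± 0.537), the lowest best peak of the 16 genes and above 5.78% of the 2629 protein-coding genes with one. All 4 Apc peaks were higher in replicate 2.

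Ctnnb1, the gene of beta-catenin, and the Dishevelled genes Dvl1 and Dvl2 had no exonic peak. Dvl3, the remaining Dishevelled gene, had 1 in replicate 2 over its start codon (chr16:20517148-20517445) with 1.51. In the secreted inhibitors, which bind ligands (Sfrp) or the LRP co-receptors (Dkk), no peak was shared. Sfrp1 had a replicate 2 peak in its 3′ UTR (chr8:23447943-23448252) with 4.04, and Dkk3, an atypical member of its family, had one in its 3′ UTR (chr7:112117758-112118049) with 1.54. Sfrp2 and Dkk1 had none.

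Enrichment of at least 4 in both replicates was reached by 5 genes, Wnt1, Wnt5a, Wnt7b, Fzd5 and Fzd10, which is 12.5% of the set beside 1.59% of all protein-coding genes. The median over the 16 genes of the mean enrichment of their best shared peak was 3.28, beside 2.86 over all 2629 protein-coding genes with a shared peak. By role it was 3.49 in the ligands (2.68 to 16.6), 3.56 in the receptors (1.95 to 6.17) and 2.21 in the intracellular genes (1.78 to 2.25). The lowest ligand, Wnt4, and the highest intracellular gene, Axin2, differed by less than the SD of Wnt4, so the order of these 2 genes is not resolved. The difference between the roles was not tested. In the order of the means, Wnt1 was followed by Fzd5, Wnt7b, Fzd10 and Wnt5a, and neighbours among these last 4 differed by less than the larger of their SDs, which ran from 0.361 to 1.38, so their order is not resolved.

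The replicates gave like values for most shared peaks. Over the 45 shared peaks of the set, the median log2 ratio of replicate 1 to replicate 2 was -0.25, with an SD of 0.35, beside -0.26 and 0.51 over all 7471 shared peaks in protein-coding exons. The ratio ran from -0.92, the first Wnt1 peak, to 0.56 in Wnt9a, and 33 of the 45 peaks (73.3%, beside 71.3% of all) were higher in replicate 2. By role, 13 of 19 ligand peaks, 13 of 18 receptor peaks and 7 of 8 intracellular peaks, the last from 3 genes, were higher in replicate 2. The replicate 1 peaks of the set had a median enrichment of 2.47 and their partners 3.04. Peaks without a counterpart had medians of 2.32 in replicate 1 (21 peaks) and 2.00 in replicate 2 (20 peaks). Over the whole lists, exonic or not, unshared peaks had a median of 3.48 and shared peaks 2.35 in replicate 1. In replicate 2 these medians were 2.39 and 2.86, so unshared peaks were the lower ones in replicate 2 only. Of all exonic peaks of the set, 68.2% of the 66 in replicate 1 and 69.7% of the 66 in replicate 2 were shared, beside 61.5% and 48.0% over all protein-coding genes. The unshared peak closest to sharing was a replicate 1 peak of Fzd8 with 2.70, which lay 99 bp from a replicate 2 peak. At the other side of the rule, the smallest overlap was 31 bp, also in Fzd8, between a replicate 2 peak with 3.21 and the 2541 bp replicate 1 peak.

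**Figure D3:**
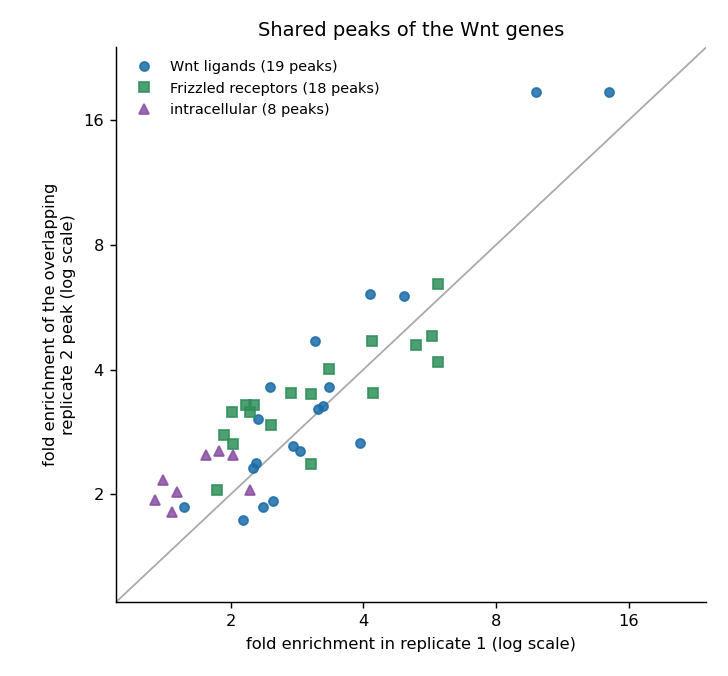
Fold enrichment of the 45 shared peaks of the Wnt genes in replicate 1 (horizontal, log axis) against the overlapping replicate 2 peak with the most common bases (vertical, log axis), by role, with the line of equal values. Most points lie a little above the line, 33 of 45, and the 2 Wnt1 points, which share 1 replicate 2 peak, stand at the top.

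Some enrichment values recur in many peaks of a list. A value was called recurring when at least 10 peaks of the same replicate had it to 5 decimals, which held for 24.8% of all replicate 1 peaks and 15.3% of all replicate 2 peaks. In the set it held for 7 of 66 exonic peaks in replicate 1 and 11 of 66 in replicate 2. Without recurring values, an alternative chosen after the data had been seen, 13 of the 40 genes had a shared peak, and Wnt5b, Wnt10a and Fzd5 were those that lost it.

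By position, 20 of the 45 shared peaks (44.4%) had their midpoint in coding sequence, 16 (35.6%) in a 3′ UTR and 9 (20.0%) in a 5′ UTR. Over all 7471 shared peaks in protein-coding exons the shares were 50.2%, 30.3% and 11.4%, with the rest in other exons, in introns or outside the gene. The start codon lay inside peaks of both replicates in 8 of the 16 genes (Wnt1, Wnt7b, Fzd1, Fzd3, Fzd5, Fzd8, Fzd10 and Axin2), beside 25.9% of the 2629 protein-coding genes with a shared peak. The stop codon did in 3 (Wnt9a, Fzd3 and Fzd7), beside 24.1%. Of the bases in shared peaks of the set, 85.7% were exonic, 9.73% intronic and 4.53% outside the gene, beside 84.4%, 11.5% and 4.14% over all shared peaks. Intronic bases made up 17.0% of the ligand peaks, 5.16% of the receptor peaks and 4.22% of the intracellular gene peaks. The ligand share rested on Wnt1, whose peaks were 43.7% intronic, and without Wnt1, a choice made after seeing the data, it was 6.70%. All intronic bases of receptor peaks were in Fzd3. Peaks of both replicates covered a median of 22.8% of the mRNA, from 4.79% in Fzd1 to 53.7% in Wnt7b, beside 13.6% over all genes with a shared peak.

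**Figure D4:**
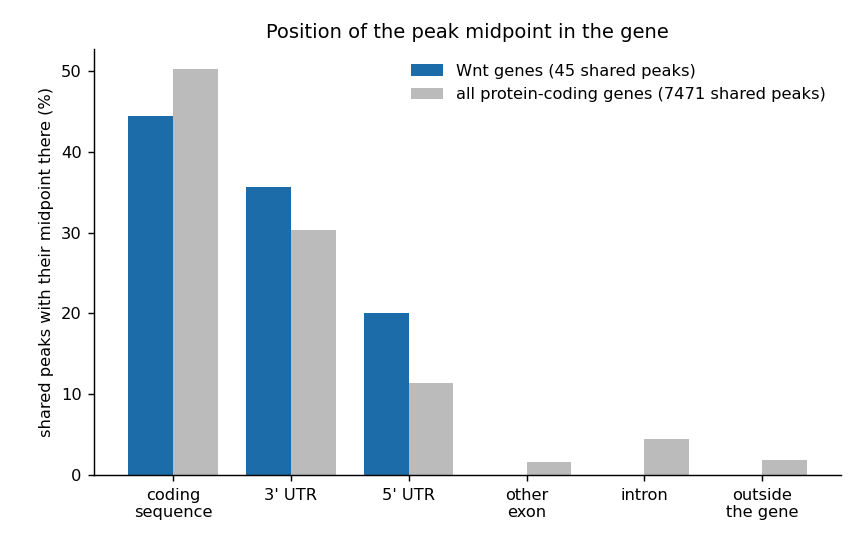
Percent of shared peaks with their midpoint in each part of the gene, for the 45 shared peaks of the Wnt genes and for all 7471 shared peaks in protein-coding exons. Peaks of the Wnt genes have their midpoint in coding sequence in 44.4%, in a 3′ UTR in 35.6% and in a 5′ UTR in 20.0%, beside 50.2%, 30.3% and 11.4% of all shared peaks.

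The letters GGAC, searched on the strand of the gene in exonic bases only, were found in 34 of the 45 shared peaks (75.6%), beside 77.5% of all shared peaks in protein-coding exons. There were 0.463 GGAC per 100 exonic bases in the peaks of the set and 0.464 in all shared peaks. By role the density was 0.631 in the ligand peaks, 0.354 in the receptor peaks and 0.417 in the intracellular gene peaks, and 17 of 19, 10 of 18 and 7 of 8 peaks held the letters. The receptor density rested on Fzd3, whose 8 peaks had 0.126, and without Fzd3, also chosen after seeing the data, the receptor peaks had 0.526. Over whole exons it was 0.404 in the 16 genes with a shared peak and 0.425 in the 24 without. The receptor peaks without GGAC included the 5.71 peak in the Fzd10 3′ UTR, and among the ligands the 4.94 peak at the 5′ end of Wnt7b had none. With GGACT instead, 37.8% of the peaks held a match. The GC content of the exonic bases had a median of 59.5% in the ligand peaks, 54.4% in the receptor peaks and 53.5% in the intracellular gene peaks, and its part in the density was not tested. The median over all 45 peaks was 56.7%, beside 53.4% over all shared peaks, and the lowest, 36.9%, was the highest Fzd3 peak in the 3′ UTR.

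A list of 68 other genes of the pathway held co-receptors, secreted modulators, destruction complex, nuclear and planar polarity genes. Of these, 20 (29.4%) had a shared exonic peak, beside 40% of the 40 Wnt genes and 12.0% of all protein-coding genes. Shares by role rest on 3 to 15 genes each, and that of the secreted modulators (9.09%) was near the 12.0%. The part of exon length, which moved with the presence of a peak, was not tested. The R-spondin axis, which keeps Frizzled receptors at the cell surface, had 4 of 9. Rspo2, a secreted R-spondin, had 10.1 in replicate 1 and 4.83 in replicate 2 (7.48 ± 3.74), and Znrf3, a ubiquitin ligase that removes Frizzled, had 6.04 and 7.68 (6.86 ± 1.16). Of the nuclear genes 7 of 12 had one, led by Bcl9l, a beta-catenin cofactor, with 3.84 and 3.92 (3.88 ± 0.0505) and Lef1, a DNA-binding partner of beta-catenin, with 4.09 and 3.41 (3.75 ± 0.482).

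Of 15 further genes of the destruction complex and its regulators 4 had a shared peak. Amer1, which binds Apc at the membrane, had 4.84 and 6.22 (5.53 ± 0.977), and its relative Amer3 had 1.77 and 2.51 (2.14 ± 0.520). Of 10 co-receptors and related genes, which include the ligand norrin (Ndp), 2 had one. Lrp6, the Wnt co-receptor proper, had 2.13 and 5.54 (3.84 ± 2.41). Adgra2, which takes part in Wnt7 signalling in brain vessels, had 1.99 and 2.40 (2.20 ± 0.284). Of 8 planar polarity and Dishevelled partner genes 2 had one, Prickle2 with 3.59 and 3.17 (3.38 ± 0.298) and Prickle1 with 1.78 and 2.24 (2.01 ± 0.326), both cytoplasmic polarity proteins. Kremen1, a Dkk receptor, was the only one of 11 secreted modulators and their receptors, with 1.83 and 3.98 (2.91 ± 1.52). The 3 genes that mature or inactivate ligands, Porcn, Wls and Notum, had no exonic peak in either replicate.

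**Figure D5:**
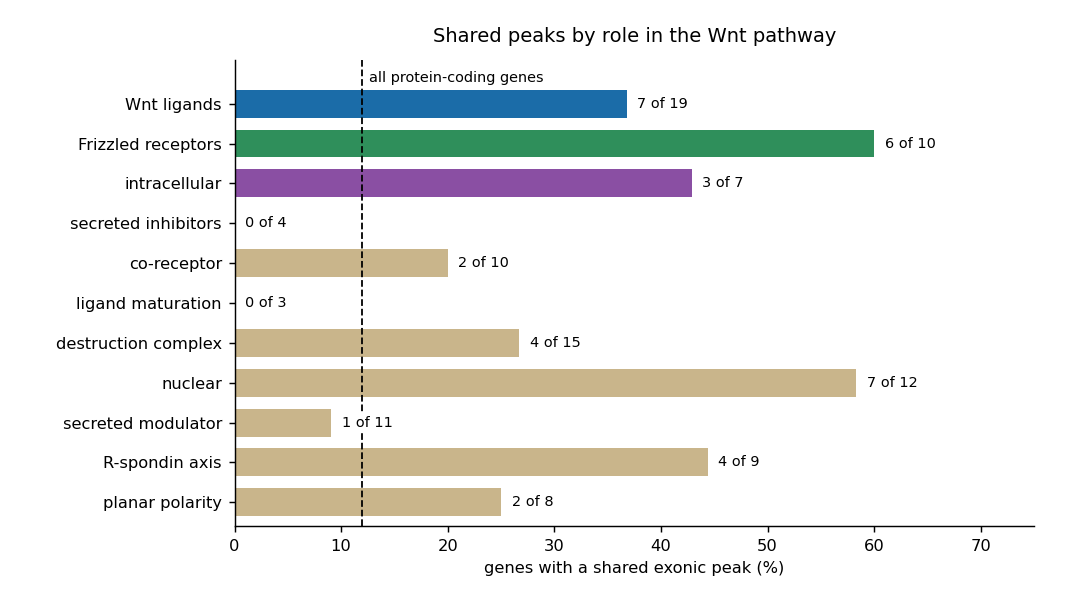
Percent of genes with a shared exonic peak by role, with the count beside each bar: the 4 roles of the 40 Wnt genes above and 7 roles of 68 other pathway genes below in tan, with a dashed line at 12.0%, the share of all protein-coding genes. Receptors (6 of 10) and nuclear genes (7 of 12) have the longest bars, and the secreted inhibitors and ligand maturation genes have none.

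Over the whole lists, replicate 1 had 18129 peaks with a median enrichment of 2.84 and replicate 2 had 18671 with 2.63. The labelled tissue could not be checked by expression. Of 23 marker genes of brain cell types and other tissues, 3 had a shared exonic peak (Slc1a2, Olig2 and Csf1r), 13.0% beside the 12.0% of all protein-coding genes. None of the 5 neuronal, 2 endothelial or 4 other tissue markers had one, groups too small to set against that share. Among them Map2, a neuronal marker, had 4 exonic peaks in replicate 2. Myh7, a marker of other tissues, had 3 in replicate 1.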

How the data were processed

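Prrc2a RIP-seq peak lists of 2 replicates of wild type mouse brain were used. The authors deposited, for each peak, its chromosome, start, end and fold enrichment, a linear ratio that is neither a count nor an expression value, with no strand, p-value or depth. Per the study's methods, the reads were trimmed, aligned to mm10 with TopHat and kept when unique and at mapping quality 20 or above, and peaks were called in each replicate with MACS2 at an FDR below 0.05; the submitters' processing notes give TopHat2 2.0.9 and MACS2 2.0.10, and the methods give other versions.

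Peaks, with positions counted from 1, were overlapped with exons of all transcripts in GENCODE M21. A peak counted for every gene whose exons it touched. The partner of a peak was the overlapping peak of the other replicate with the most common bases. Regions were read at the peak midpoint, in the order coding sequence, 3′ UTR, 5′ UTR, other exon, intron. The principal transcript followed APPRIS. Calculations used Python 3.11.15, pysam 0.24.0 and samtools 1.23.1, and figures matplotlib 3.10.9. On simulated peaks in 200 genes, 7 of 7 planted quantities were recovered.

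The members and lists were chosen with earlier results of these data known. Named were every member, the best shared peak of each, all shared peaks of the 5 most enriched members, and of other pathway genes the 2 most enriched per role and all in roles of 4 genes or fewer. There was a single condition, so no test was run. Alternatives varied the overlap, the enrichment, the exons, the region, the motif and the replicates.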

Additional observations from a re-analysis of the deposited data

How the results depend on the processing

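The count of 16 Wnt genes with a shared exonic peak became 18 to 22 on a single replicate, 13 with an overlap of 50% of both peaks, 15 with at least 50% of the peak exonic, and 13 without recurring enrichment values, an alternative chosen after seeing the data. Whole gene spans, basic transcripts, coding and UTR exons or 1 gene per peak gave 16. It was 8 with an enrichment of at least 3 in both peaks and 5 with at least 4. The share of all protein-coding genes was 16.5% to 21.1% on a single replicate and 1.59% with at least 4 in both. It was not computed for the other alternatives, so the counts there have no background beside them. The 45 shared peaks became 27 with 50% overlap, 17 at an enrichment of at least 3 and 9 at 4, and single replicates had 66 to 66. The 20 other pathway genes became 7 at 3 and 4 at 4, with 26 to 34 on a single replicate, 34 being without replicate 1. The 44.4% of peaks with their midpoint in coding sequence became 42.2% by the region with the most bases, 50.0% with replicate 2 peaks counted, 35.3% at an enrichment of at least 3, and 50.0% to 51.5% on a single replicate. The 75.6% with GGAC became 37.8% for GGACT, 84.4% in the overlapping replicate 2 peaks, 73.3% in the bases common to both, and 77.3% to 78.8% on a single replicate. The median best enrichment of 3.28 stayed between 3.19 and 3.32. No paired analysis was possible because there was 1 group of samples. With 2 replicates and no read totals, an SD rests on 2 values, and absence of a peak sets no limit on binding.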

Other observations

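Peaks that lay wholly in introns of the 40 Wnt genes were found in Wnt5b alone. Replicate 1 had 2 of them, with 2.02 at chr6:119479969-119481069 and 1.84 at chr6:119481321-119481678, and both overlapped replicate 2 peaks, with 2.00 and 2.37. Replicate 2 had 1 more, with 1.87. They lie upstream, along the gene, of the exonic peaks described for Wnt5b, and no strand is given that would assign them to it. Their overlap with exons of other genes is not given, so they cannot be read as intronic RNA of Wnt5b.

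Of the 68 other pathway genes, 4, named here after their values were seen, had at least 5 exonic peaks in replicate 2 and none in replicate 1, and 0 had the reverse. Over all protein-coding genes these numbers were 98 and 11 of 21938, and replicate 2 had 16344 exonic peaks in them against 12144 in replicate 1. Lrp5, the relative of the co-receptor Lrp6, had 10 in replicate 2 and 0 in replicate 1, Tnks, a poly-ADP-ribosylating enzyme that destabilises Axin, had 8 and 0, Apc2, the brain-enriched relative of Apc, had 7 and 0, and Tnks2 had 5 and 0. Among the 40 Wnt genes the largest such case was Fzd2, with 2 and 0. Exons of Lrp5, Tnks, Apc2 and Tnks2 spanned 9738, 14888, 11281 and 10406 bases, beside a median of 3499 over all protein-coding genes. The part of exon length in these counts was not tested. Vangl2, a planar polarity protein, had 4 peaks in replicate 1 and 2 in replicate 2, none of which overlapped.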
